A study of Mus musculus with 6 samples.

Results

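The genes of the major histocompatibility complex (MHC, called H2 in the mouse) and of antigen presentation were followed in bone marrow mesenchymal stem cells (MSCs) with and without a conditional deletion of Pcif1. They were chosen by name: every gene whose symbol begins with H2-, together with B2m, Tap1, Tap2, Tapbp, Tapbpl, Cd74, Ciita, Nlrc5, Psmb8, Psmb9, Psmb10, Erap1, Cd1d1, Cd80 and Cd86, each Ensembl ID counted once. This gave 46 of the 20071 genes counted. Of these, 34 belong to the class I arm, 9 to the class II arm and 2 are co-stimulatory ligands. The last, H2-Ke6, carries the H2- prefix only for its place on the chromosome. PCIF1 is the methyltransferase that places m6Am at the start of capped mRNAs. MSCs came from the femurs of 6-week-old mice on the C57BL/6J background and were kept for 7 days in osteogenic medium, which held dexamethasone at 100 nM, β-glycerophosphate at 5 mM and ascorbic acid at 50 μg/mL. Below, MSCs names these whole cultures, which also held macrophage transcripts, so a level covers all cells in them. All animals carried Pcif1 alleles with loxP sites around exons 5 to 7. The Prrx1-Cre;Pcif1fl/fl group (CKO) also carried a Cre recombinase driven by Prrx1, which is active in limb mesenchyme and its descendants and not in blood cells, while the Pcif1fl/fl littermates (WT) had no Cre. Poly(A) RNA was sequenced in 3 libraries of each genotype, and the comparison asks which of these genes differ in level when Pcif1 is removed.

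Class I molecules are made by nearly every nucleated cell. A heavy chain pairs with beta-2 microglobulin and shows peptides, cut by the proteasome and carried into the endoplasmic reticulum by the TAP transporter, to CD8 T cells and natural killer cells. Class II molecules are normally limited to dendritic cells, macrophages and B cells, where Cd74 (the invariant chain) guards the groove until H2-DM exchanges its remnant for a peptide that CD4 T cells can read. NLRC5 and CIITA switch on the class I and class II promoters, interferon-gamma raises both arms, and CD80 and CD86 give the second signal a T cell needs through CD28.

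The libraries held between 20258209 and 28227696 counts. Levels are given as CPM, which are read counts scaled to a common library size with edgeR's TMM factors, and in the order of replicates 1 to 3. Pcif1 itself was at 42.8, 41.7 and 39.3 CPM in WT and at 39.2, 37.8 and 39.7 CPM in CKO MSCs. The groups overlapped, although its count covers exons outside the deleted stretch. WT replicate 3 stood apart: 3.63% of its counts were mitochondrial, against 1.40% to 1.57% in the other 5 libraries, and results that turn on it are given with and without it. Xist, the RNA of the inactive X chromosome, was at 232 to 443 CPM in the WT libraries and at 0.722 to 1.79 CPM in the CKO libraries, while Ddx3y of the Y chromosome was at 48.4 to 62.2 CPM in WT and at 99.1 to 104 CPM in CKO libraries (log2 fold change 0.83, edgeR adjusted p = 0.00325). The labels give no sex, so sex and genotype cannot be told apart. Xist and Ddx3y were both present in each WT library, and whether these libraries held cells of both sexes was not tested. Nothing says that the libraries came from separate animals, so p-values measure the spread between these libraries, which may be technical. In bulk RNA, fewer cells of a type and less RNA per cell cannot be told apart.

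All 31 H2- genes lie on chromosome 17, and many arose from each other by duplication, so that reads can be shared between them. Of the 100-base windows of the principal H2-Q7 transcript, 21.9% occur word for word in another gene, H2-Q6 among them, and 10.8% of those of H2-Q6 do. The share was 4.64% for H2-D1 and 0.0% for the principal transcript of H2-K1, although the 12.9% of H2-Q5 windows found elsewhere include matches to transcripts of H2-K1. Exons of H2-T22, Tapbp, H2-T10, H2-Q4, Tap2 and Psmb8 overlap other genes, mostly antisense, over 29.4%, 29.02%, 27.1%, 19.1%, 18.5% and 14.7% of their bases, and without a stated strand setting their counts may include those genes. The promoters show the same kinship. The stretches below are the 250 bases before the transcription start of the classical genes H2-K1 and H2-D1, of H2-Q6 and H2-Q7, which are the heavy chains with the lowest fold changes among those tested, and of B2m. The last stretch is the whole interval between Tap1 and Psmb9, which are transcribed away from each other from starts 226 bases apart. They come from RefSeq on GRCm38.p6, at chr17:34000334-34000583 (minus strand, the more downstream of 2 starts), chr17:35262844-35263093, chr17:35424600-35424849, chr17:35438905-35439154, chr2:122147437-122147686 and chr17:34187331-34187555 (all plus strand). Capitals mark the motifs CCAAT (the Y box letters), TGACG (the core of the X2 box and of cAMP response elements) and GAAANNGAA (the core of an interferon-stimulated response element), or their reverse complements.
H2-K1: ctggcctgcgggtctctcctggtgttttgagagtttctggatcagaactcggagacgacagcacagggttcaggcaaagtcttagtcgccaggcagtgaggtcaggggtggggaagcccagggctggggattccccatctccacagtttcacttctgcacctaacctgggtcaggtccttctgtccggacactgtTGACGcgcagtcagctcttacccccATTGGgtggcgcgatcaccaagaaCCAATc
H2-D1: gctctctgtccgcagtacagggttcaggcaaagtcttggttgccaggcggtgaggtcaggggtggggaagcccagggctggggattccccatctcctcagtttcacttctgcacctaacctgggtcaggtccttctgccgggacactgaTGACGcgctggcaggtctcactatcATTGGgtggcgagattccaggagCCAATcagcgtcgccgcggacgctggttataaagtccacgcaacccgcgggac
H2-Q6: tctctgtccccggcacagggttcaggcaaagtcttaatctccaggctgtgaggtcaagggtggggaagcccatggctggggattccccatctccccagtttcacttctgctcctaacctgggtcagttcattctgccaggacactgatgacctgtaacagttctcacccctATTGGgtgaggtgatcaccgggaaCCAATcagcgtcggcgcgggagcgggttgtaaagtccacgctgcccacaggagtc
H2-Q7: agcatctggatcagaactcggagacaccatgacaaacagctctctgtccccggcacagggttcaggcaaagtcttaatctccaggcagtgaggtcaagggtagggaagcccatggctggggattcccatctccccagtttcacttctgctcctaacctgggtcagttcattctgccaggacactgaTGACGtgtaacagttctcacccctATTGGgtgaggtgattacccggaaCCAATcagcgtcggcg
B2m: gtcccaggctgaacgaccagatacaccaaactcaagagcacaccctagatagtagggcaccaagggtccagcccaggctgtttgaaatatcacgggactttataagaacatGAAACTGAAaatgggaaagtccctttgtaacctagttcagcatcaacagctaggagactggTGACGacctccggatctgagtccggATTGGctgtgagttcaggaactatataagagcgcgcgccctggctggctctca
Tap1 and Psmb9: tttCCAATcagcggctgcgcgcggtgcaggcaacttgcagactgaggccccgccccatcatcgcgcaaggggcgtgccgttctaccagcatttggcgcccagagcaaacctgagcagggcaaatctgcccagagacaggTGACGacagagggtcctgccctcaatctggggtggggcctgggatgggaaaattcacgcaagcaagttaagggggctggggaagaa

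An inverted and a forward CCAAT stand a short way apart in all 4 heavy chain promoters, and TGACG precedes them in H2-K1, H2-D1 and H2-Q7 but is not found in this window of H2-Q6. Windows of 300 bases (250 before to 50 after the start) were aligned, and identity is the share of all alignment columns, gaps included. It was 75.0% for H2-Q6 and H2-Q7 (255 of 340 columns) and 79.9% for H2-D1 and H2-Q6 (242 of 303). It was 64.8% for H2-K1 and H2-D1 (225 of 347) and 47.0% for H2-K1 and H2-T23. The paired CCAAT begins 79 and 55 bases before the start in H2-Q6 but 40 and 16 in H2-Q7. Offset starts add gaps that lower the share, so these shares do not rank kinship. RefSeq windows on chromosome 18, where Cd74 lies, were left out, and 34 windows for 31 of the 46 genes were used. CCAAT was present on either strand in 27 of the 34 (79.4%), against 37.4% of all 32851 mouse windows. TGACG was present in 11 (32.4%) against 20.8%, GAAANNGAA in 4 (11.8%) against 8.56% and TTCNNNGAA, the core of a gamma-activated site, in 3 (8.82%) against 8.30%. The full TGACGTCA, which contains TGACG, was in 0 of the 34 and in 1.79% of all windows. Duplicated genes share such letters by descent, and a match is not a bound site. Only exact matches were searched, so a promoter without a match may still hold a variant of the element.

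Of the 46 genes, 33 had enough counts to be tested. The other 13 had at most 15 counts in any library, or 0.548 CPM. No member passed the threshold of the study, a 2-fold change in either direction with an adjusted p under 0.05 (the quasi-likelihood test of edgeR, adjusted by Benjamini-Hochberg over the 13733 genes tested). Over all genes, 142 (1.03%) were up-regulated and 343 (2.5%) were down-regulated by that rule. DESeq2 also called 0 members by that rule. In edgeR, 11 of the 33 had an unadjusted p under 0.05, 5 of them higher and 6 lower in CKO MSCs, beside 9.56% and 11.8% of all genes. With the adjusted p alone, at any fold, Cd80 and Cd86 rose and Cd1d1 and H2-Q6 fell. That is 2 of 33 in each direction, beside 2.88% of all genes higher and 4.51% lower. DESeq2 called 2 higher and 3 lower at any fold, beside 3.76% and 5.26% of the 15789 genes to which it gave an adjusted p. Every CKO library lay above every WT library for 6 of the 33 and below for 7, which compares with 15.0% and 15.7% of all genes. The median log2 fold change was 0.12 over the 33 members (-0.03 without WT replicate 3) and 0.00 over all genes.

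**Figure D1:**
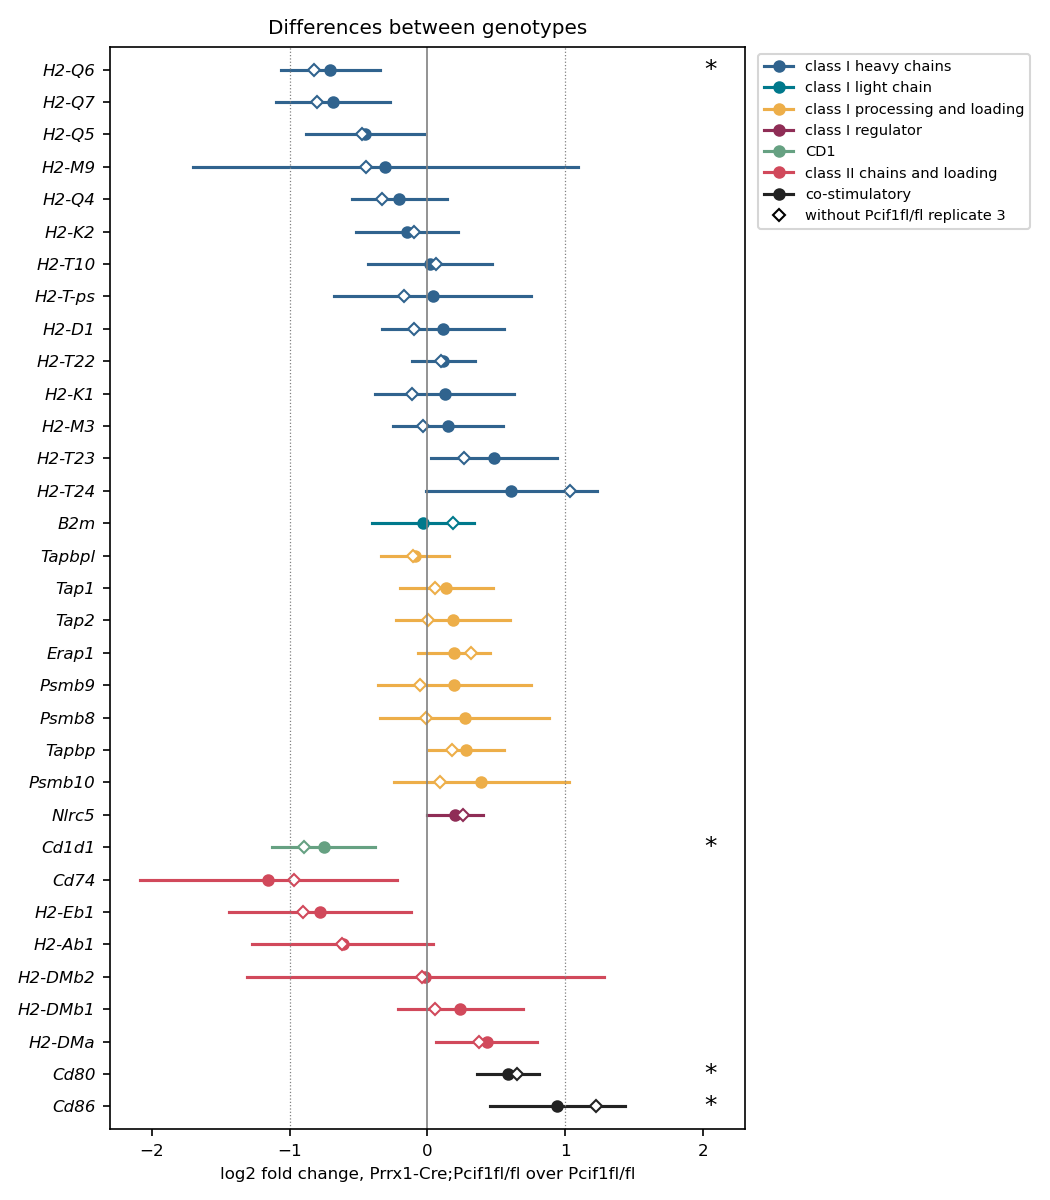
Log2 fold change of the 33 genes tested (x axis, CKO over WT MSCs), grouped by role. Circles and lines are the estimate from all 6 libraries with its 95% interval, open diamonds are the estimate without WT replicate 3, asterisks mark an adjusted p under 0.05 with all libraries, and dotted lines mark a 2-fold change. The intervals of Cd80 and Cd86 lie to the right of 0 and those of Cd1d1 and H2-Q6 to the left, while H2-K1, H2-D1 and B2m straddle it.

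The classical class I heavy chains H2-K1 and H2-D1, which present peptides to CD8 T cells, were abundant in both genotypes and did not pass the test. H2-D1 was at 2343, 2039 and 1292 CPM in WT and at 2065, 2065 and 2003 CPM in CKO MSCs. H2-K1 was at 1064, 929 and 535 CPM against 902, 974 and 882 CPM. For both genes the WT group contained the highest and the lowest library, and the lowest was replicate 3. The log2 fold change was 0.11 (SE 0.19, 95% interval -0.33 to 0.55, adjusted p = 0.779) for H2-D1 and 0.13 (SE 0.22, 95% interval -0.38 to 0.63, adjusted p = 0.784) for H2-K1. Without WT replicate 3 the estimates changed sign, to -0.10 (adjusted p = 0.312) and -0.11 (adjusted p = 0.266). Together these genes made up 84.5% to 88.3% of the summed level of the 23 heavy chain genes, which was 3865, 3361 and 2162 CPM in WT and 3443, 3518 and 3323 CPM in CKO MSCs. The log2 ratio of the group means of that sum was 0.13, and -0.08 without replicate 3.

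B2m (ENSMUSG00000060802, chr2:122147686-122153083), the light chain common to all class I molecules, went the other way in that library. Its level was 1472, 1385 and 2123 CPM in WT and 1595, 1717 and 1561 CPM in CKO MSCs. The groups overlapped only through replicate 3, which was the highest of the 6 libraries. With all libraries the log2 fold change was -0.03 (SE 0.16, 95% interval -0.40 to 0.34, adjusted p = 0.933), and without replicate 3 it was 0.19 (adjusted p = 0.0384). Per kilobase of transcript, B2m stood at 0.966, 1.04 and 2.61 times the sum of H2-K1 and H2-D1 in WT and at 1.205, 1.26 and 1.21 times in CKO MSCs. The light chain and the main heavy chains were thus of similar abundance in 5 of the libraries, and replicate 3 departed from them.

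**Figure D2:**
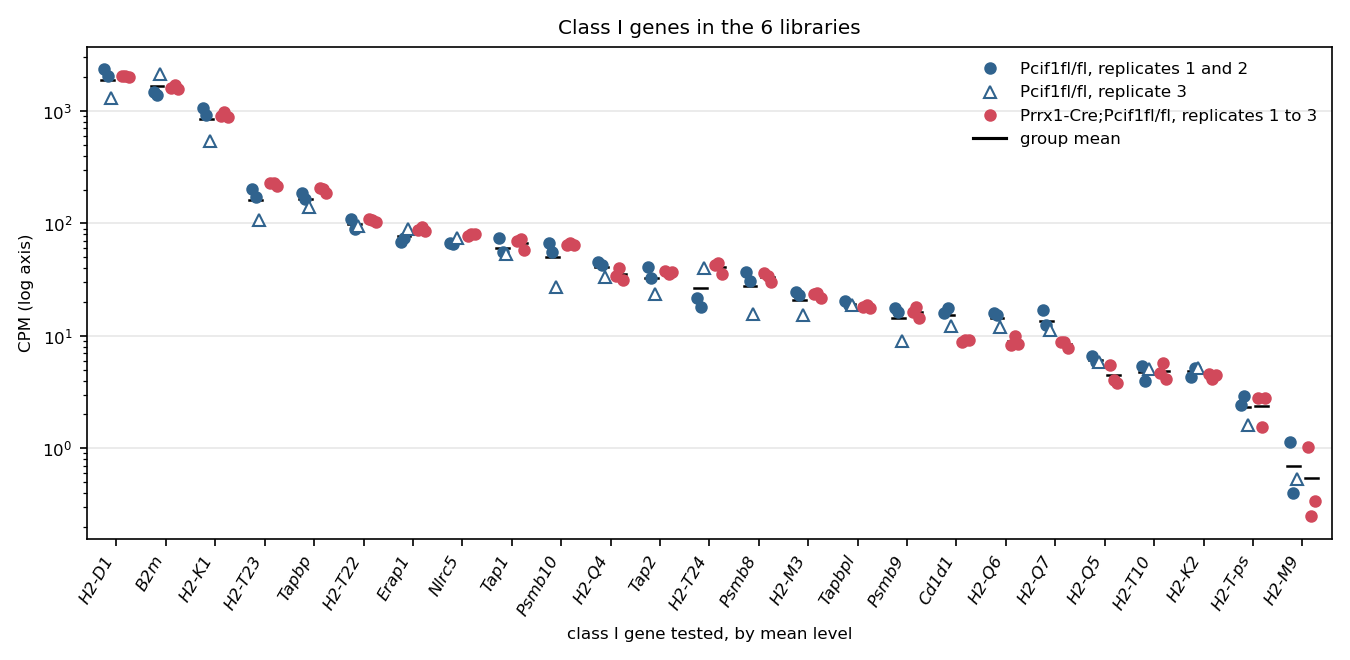
Level of the 25 class I genes tested, in CPM on a log axis, in each of the 6 libraries, ordered by mean level. Filled circles are WT replicates 1 and 2 (blue) and the 3 CKO libraries (red), the open triangle is WT replicate 3, and bars are group means. H2-D1, B2m and H2-K1 lie well above the rest, and the triangle is the lowest point for H2-D1, H2-K1, H2-T23, Psmb8 and Psmb10 and the highest for B2m.

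All 4 nonclassical heavy chains of the Q region that could be tested had a negative log2 fold change, and 1 of them, H2-Q6, fell. H2-Q6 (ENSMUSG00000073409, chr17:35424850-35430055, plus strand) and H2-Q7 (ENSMUSG00000060550, chr17:35439155-35443773, plus strand, listed also as H2-Q9) encode Qa-2 type molecules, which are anchored in the membrane by lipid or secreted. H2-Q6 was at 16.1, 15.4 and 12.05 CPM in WT and at 8.37, 9.95 and 8.42 CPM in CKO MSCs. The groups did not overlap, and the mean fell to 0.614 of the WT level (14.5 ± 2.18 against 8.92 ± 0.900 CPM, SD, n = 3), with a log2 change of -0.70 (SE 0.16, edgeR adjusted p = 0.0322). H2-Q7 was at 17.1, 12.6 and 11.2 CPM against 8.82, 8.81 and 7.75 CPM. Its log2 fold change of -0.68 (SE 0.18) missed the threshold in edgeR (adjusted p = 0.0584). It passed without the filter on low counts (adjusted p = 0.0352), in DESeq2 (0.0150) and without WT replicate 3 (-0.80, adjusted p = 0.000857). Since these neighbours share transcript sequence, reads of either may have been counted on the other, and their changes are not separate observations.

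The call for H2-Q6 rested on the full set of libraries. Without WT replicate 3 the log2 fold change was -0.82 (adjusted p = 0.000168), but without any other library the adjusted p was above 0.05, from 0.0762 without CKO replicate 2 to 0.159 without replicate 1 of that genotype (0.0880 and 0.113 without WT replicates 1 and 2, 0.152 without CKO replicate 3). The log2 fold change stayed between -0.62 and -0.82 throughout. Of the other Q genes tested, H2-Q5, which the annotation types as a polymorphic pseudogene, had a log2 fold change of -0.45 (adjusted p = 0.208) with groups that did not overlap. H2-Q4 was at 45.8, 42.9 and 33.1 CPM against 34.1, 40.1 and 31.6 CPM, a log2 fold change of -0.20 (adjusted p = 0.492) that became -0.33 (adjusted p = 0.0207) without WT replicate 3. The median over the 4 Q genes tested was -0.57. H2-Q1, H2-Q2 and H2-Q10, the last known as a soluble molecule of the liver, had at most 7 counts in a library and were not tested.

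All 5 T region genes tested had a positive log2 fold change, with a median of 0.12, and 0 were called with all libraries. H2-T23, which encodes Qa-1, the ligand through which natural killer cells read class I leader peptides, was at 202.5, 172 and 108 CPM in WT and at 231, 228 and 215 CPM in CKO MSCs. The groups did not overlap, yet the spread of the WT libraries was wide and the test was not passed (log2 fold change 0.48, SE 0.20, adjusted p = 0.212). Without replicate 3 the difference was smaller and passed (0.26, adjusted p = 0.0178). H2-T24 was at 21.7, 18.1 and 40.0 CPM against 42.3, 44.1 and 35.4 CPM, so that replicate 3 lay within the other group. Its log2 fold change was 0.61 (SE 0.27, adjusted p = 0.241) with all libraries and 1.04 (adjusted p = 4.83e-06) without replicate 3. H2-T22, a ligand of some gamma delta T cells, had a log2 fold change of 0.12 (SE 0.10, adjusted p = 0.553), and H2-T10 and the pseudogene H2-T-ps were between 0.02 and 0.04. H2-T22 and H2-T10 also share windows with each other, so their values are uncertain.

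Of the 6 M region genes, H2-M3, which presents formylated peptides of bacteria and mitochondria, was at 24.4, 23.01 and 15.4 CPM against 23.5, 24.2 and 21.7 CPM (log2 fold change 0.15, SE 0.17, adjusted p = 0.675). H2-M9 was at 0.249 to 1.14 CPM with no call. H2-M1, H2-M2, H2-M5 and H2-M10.2, some of which are known from vomeronasal neurons, had between 0 and 12 counts. On the same scale per kilobase, the order of the 9 most abundant heavy chains in WT MSCs was H2-D1 (mean 900 CPM per kilobase), H2-K1 (521), H2-T23 (109), H2-T22 (55.7), H2-Q4 (22.6), H2-M3 (14.5), H2-T24 (12.2), H2-Q7 (9.09) and H2-Q6 (6.97). The ranges over the WT libraries overlapped between H2-D1 and H2-K1, among H2-M3, H2-T24 and H2-Q7, and between H2-Q7 and H2-Q6. H2-K2, a pseudogene beside H2-K1, was at 4.13 to 5.20 CPM with a log2 fold change of -0.15 (adjusted p = 0.649), and H2-Bl and H2-T18 had at most 1 count in a library. H2-Ke6, which is no class I gene and shares 86.4% of its exonic bases with Gm20427, had at most 4 counts.

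The machinery that makes and loads class I peptides gave 0 calls among 8 genes by edgeR at any fold, beside 2.88% of all genes higher and 4.51% lower. DESeq2 also called 0. At an unadjusted p under 0.05 in edgeR, 1 was higher (9.56% of all genes). Of the 8, 7 had a positive log2 fold change, with a median of 0.19. In the fit without WT replicate 3, 5 of the 8 were positive and the median was 0.03. Tapbp, which encodes tapasin, the bridge between TAP and the heavy chain, was at 187, 165 and 139 CPM in WT and at 206, 202 and 188 CPM in CKO MSCs. All 3 CKO libraries were above the WT libraries, and the log2 fold change was 0.28 (SE 0.12, adjusted p = 0.220). The TAP subunits overlapped between groups. Tap1 was at 73.7, 55.5 and 53.1 CPM against 69.9, 72.1 and 58.5 CPM (log2 fold change 0.14, adjusted p = 0.639), and Tap2 was at 40.9, 32.7 and 23.7 CPM against 37.9, 35.5 and 36.9 CPM (0.18, adjusted p = 0.612). Tapbpl, a peptide editor related to tapasin, was at -0.09 (adjusted p = 0.686), and the trimming peptidase Erap1 at 0.19 (adjusted p = 0.390). Without WT replicate 3, Erap1 was at 0.31 (adjusted p = 0.00474), the only one of the 8 that passed.

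The immunoproteasome subunits Psmb8, Psmb9 and Psmb10 replace Psmb5, Psmb6 and Psmb7 in proteasomes made under interferon-gamma. Psmb8 was at 36.6, 30.7 and 15.7 CPM against 35.9, 34.1 and 29.9 CPM, with a log2 fold change of 0.27 (adjusted p = 0.614). Psmb9 was at 17.6, 16.4 and 8.93 CPM against 16.3, 18.2 and 14.5 CPM (0.19, adjusted p = 0.692), and Psmb10 at 67.4, 55.5 and 27.0 CPM against 64.4, 66.7 and 64.9 CPM (0.39, adjusted p = 0.476). In each, WT replicate 3 was far below the other 5 libraries, which lay close to each other, and without it the estimates were -0.01, -0.05 and 0.09. Per kilobase, the ratio of Psmb8 to Psmb5 was 0.328 ± 0.0608 in WT and 0.287 ± 0.0285 in CKO MSCs (SD, n = 3). The ratio of Psmb9 to Psmb6 was 0.149 ± 0.00749 against 0.133 ± 0.0117, and that of Psmb10 to Psmb7 was 0.906 ± 0.156 against 1.00 ± 0.0544. The groups overlapped in each ratio, and in both genotypes Psmb10 was closer to the level of its constitutive partner than Psmb8 or Psmb9.

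Nlrc5 (ENSMUSG00000074151), the transactivator of class I promoters, was at 67.05, 66.01 and 74.3 CPM in WT and at 77.6, 80.7 and 79.8 CPM in CKO MSCs. The groups did not overlap, but the difference was small (log2 fold change 0.20, SE 0.09) and not called (adjusted p = 0.247, and 0.0123 without WT replicate 3). The other class I gene that fell was Cd1d1 (ENSMUSG00000028076, chr3:86995834-86999441, minus strand), which shows lipids to natural killer T cells and lies outside the H2 complex. It was at 16.1, 17.7 and 12.1 CPM in WT and at 8.82, 9.26 and 9.19 CPM in CKO MSCs. All 3 CKO libraries were below the lowest WT library, and the mean fell from 15.3 ± 2.88 to 9.09 ± 0.234 CPM (SD, n = 3), with a log2 change of -0.75 (SE 0.16, adjusted p = 0.0284). The estimate was -0.89 (adjusted p = 4.12e-05) without WT replicate 3. Without any of the other libraries it kept its direction but not its call, with an adjusted p from 0.0792 without WT replicate 1 to 0.142 without CKO replicate 1 (0.103 without WT replicate 2, and 0.116 and 0.119 without CKO replicates 2 and 3). Of its 100-base windows, 14.6% also occur in its paralog Cd1d2.

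**Figure D3:**
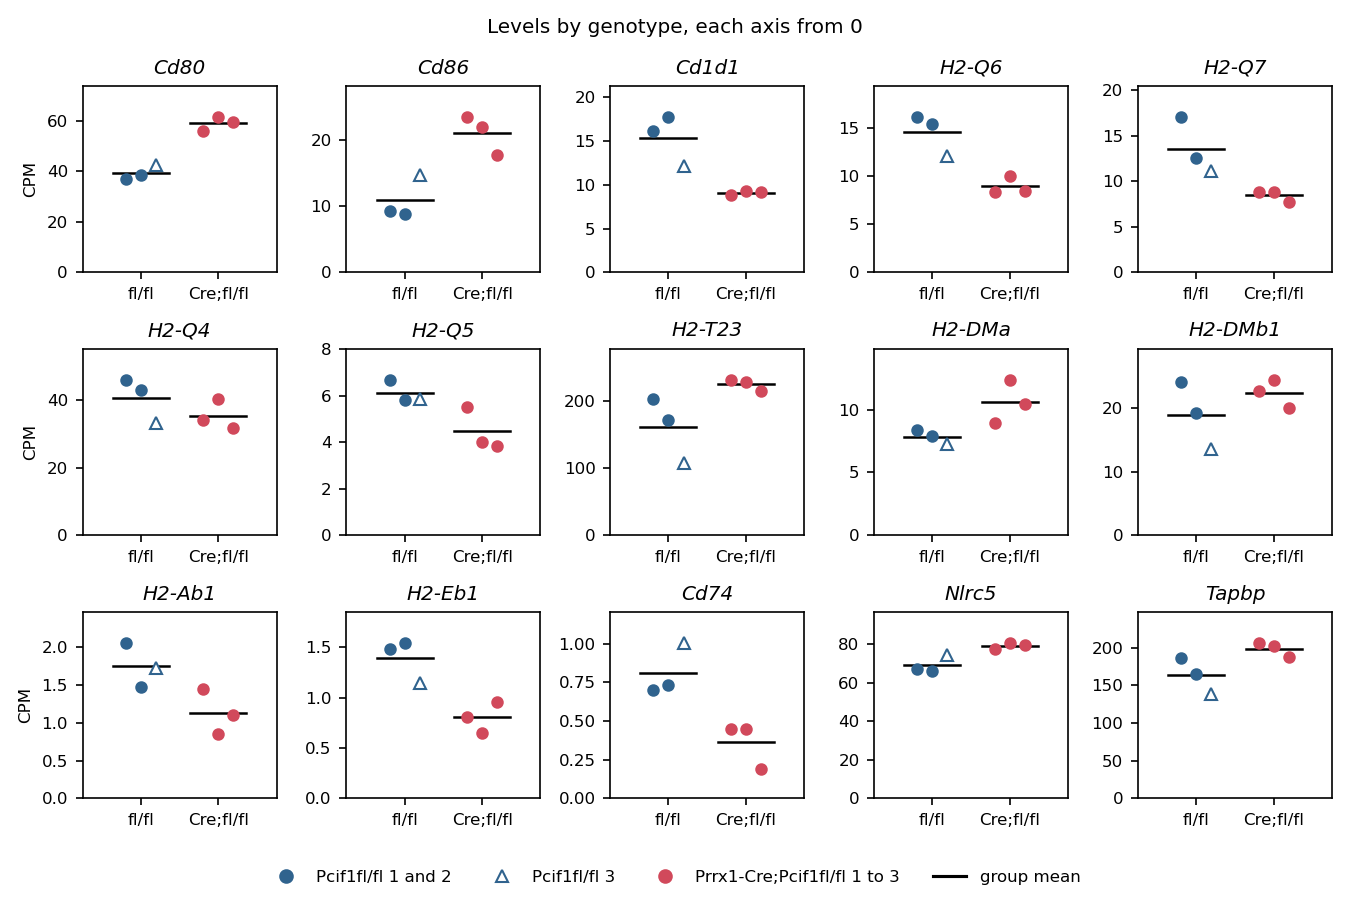
Level in CPM of 15 genes in each library of WT (fl/fl, left) and CKO (Cre;fl/fl, right) MSCs, with every y axis starting at 0. Circles and triangles are single libraries, the open triangle is WT replicate 3, and bars are group means. The groups are apart for Cd80, Cd86, Cd1d1, H2-Q6, H2-Q7, H2-Q5, H2-T23, H2-DMa, H2-Ab1, H2-Eb1, Cd74, Nlrc5 and Tapbp and overlap for H2-Q4 and H2-DMb1.

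Apart from the H2-DM genes, the class II genes measured were at low levels in both genotypes, at most 2.053 CPM in any library. Its summed level, over the H2-A, H2-E, H2-DM and H2-O genes and Cd74, was 37.0, 31.8 and 25.3 CPM in WT and 34.9, 39.2 and 33.2 CPM in CKO MSCs, most of it from H2-DMb1 and H2-DMa. Neither edgeR nor DESeq2 called any of the 6 class II genes tested. At an unadjusted p under 0.05 in edgeR, 1 was higher and 2 were lower, beside 9.56% and 11.8% of all genes. H2-Aa was not analysed here. Cd74 (ENSMUSG00000024610), the invariant chain, had 16, 20 and 28 counts in WT and 10, 9 and 4 counts in CKO MSCs, or 0.699, 0.735 and 1.00 CPM against 0.450, 0.448 and 0.192 CPM. The groups did not overlap, and the log2 fold change was -1.15 (SE 0.41, 95% interval -2.08 to -0.22, adjusted p = 0.144). At this depth a difference of that size did not pass, and over all alternatives tried its adjusted p was 0.132 to 0.411.

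The chains that bind the peptide were also scarce. H2-Ab1, the beta chain of the A molecule, was at 2.053, 1.47 and 1.72 CPM against 1.44, 0.846 and 1.11 CPM (log2 fold change -0.62, SE 0.29, adjusted p = 0.266). H2-Eb1, the beta chain of the E molecule, whose alpha chain C57BL/6 mice cannot make, was at 1.485, 1.54 and 1.15 CPM against 0.810, 0.647 and 0.962 CPM (-0.78, SE 0.29, adjusted p = 0.161). In both the groups did not overlap, and CKO MSCs were lower. Ciita, the master regulator of class II, had 5, 6 and 15 counts in WT and 2, 2 and 5 counts in CKO MSCs and was not tested. H2-Oa and H2-Ob, which make the inhibitor of H2-DM in B cells, had 0 to 3 counts.

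H2-DMa and H2-DMb1, the chains of the peptide exchange factor, were measured better and did not share that direction. H2-DMa was at 8.39, 7.90 and 7.24 CPM against 8.91, 12.3 and 10.4 CPM, without overlap (log2 fold change 0.43, SE 0.16, adjusted p = 0.162). H2-DMb1 was at 24.1, 19.3 and 13.7 CPM against 22.7, 24.4 and 20.1 CPM, with overlap (0.24, SE 0.20, adjusted p = 0.546). Its paralog H2-DMb2 had 3 to 22 counts, and 13.7% of the windows of H2-DMb1 occur in it as well. Without WT replicate 3 the estimate for H2-DMb1 was 0.05 (adjusted p = 0.790). The summed class II level had a log2 ratio of 0.19, and 0.06 without WT replicate 3, while the median over the 6 class II genes was -0.32.

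Cd80 (ENSMUSG00000075122, chr16:38455561-38496335, plus strand) and Cd86 (ENSMUSG00000022901, chr16:36603869-36666081, minus strand), the B7 ligands of CD28 and CTLA-4, were the members that rose. Cd80 was at 36.9, 38.6 and 42.5 CPM in WT and at 56.1, 61.5 and 59.7 CPM in CKO MSCs. The libraries of each genotype lay close together and the groups were far apart, with means of 39.3 ± 2.90 and 59.1 ± 2.74 CPM (SD, n = 3). The log2 fold change was 0.59 (SE 0.10, adjusted p = 0.00919). Cd86 was at 9.30, 8.86 and 14.8 CPM against 23.5, 22.1 and 17.8 CPM. The groups did not overlap, the nearest libraries being WT replicate 3 and CKO replicate 3, and the means differed 1.92-fold (10.98 ± 3.29 against 21.1 ± 3.01 CPM, SD, n = 3; log2 fold change 0.94, SE 0.22, adjusted p = 0.0347). Without WT replicate 3 the log2 fold changes were 0.65 (adjusted p = 1.6e-05) and 1.22 (adjusted p = 6.01e-06).

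Leaving out other libraries weakened these calls more for Cd86 than for Cd80. For Cd80 the adjusted p was 0.0280 and 0.0455 without WT replicates 1 and 2, 0.0440 without CKO replicate 1, and 0.0576 and 0.0607 without its replicates 2 and 3. For Cd86 it was above 0.05 in each of these, between 0.0634 without CKO replicate 3 and 0.149 without its replicate 1 (0.0927 and 0.118 without WT replicates 1 and 2, 0.133 without CKO replicate 2). Every estimate stayed positive, from 0.54 to 0.65 for Cd80 and from 0.81 to 1.22 for Cd86. In an edgeR fit of all libraries with the replicate number as a block, Cd86 was not called (adjusted p = 0.0558) and Cd80 was (0.0259). Among 6 other ligands of T cells (Cd40, Cd274, Pdcd1lg2, Icosl, Cd276 and Cd83), edgeR called 0 of 5 tested and DESeq2 1, higher (3.76% of all genes). The median was 0.34. Without WT replicate 3 edgeR called 2 higher (11.1% of all genes). With all libraries 1 was higher at an unadjusted p under 0.05 in edgeR (9.56% of all genes). That one was Cd83, named after its values were seen, at 11.3, 12.2 and 8.07 CPM against 15.7, 14.0 and 18.04 CPM, without overlap (log2 fold change 0.60, SE 0.18, adjusted p = 0.0938).

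Leaving out WT replicate 3 changed several of these calls. Across 12603 genes, its deviation from the other WT libraries went down with the GC content of the transcript (Pearson's r = -0.357, a description across genes, which are not independent). In the same genes it went up with the log2 length of the transcript (r = 0.352). For GC content r was 0.458 in WT replicate 1 and between -0.129 and 0.100 in the other 4 libraries. Each deviation is from the other libraries of the group, so the WT deviations add to 0 for every gene. The opposite sign in WT replicate 1 is therefore not a separate observation. The level in replicate 3 was the lowest of the 6 libraries for 12 of the 33 members and the highest for 3, beside 32.1% of all genes for either. All 4 members with under 45% GC (B2m, Erap1, Cd80 and Cd86) were higher in it than in replicates 1 and 2, and 14 of the 16 with at least 55% GC were lower in it than the mean of replicates 1 and 2. Over the 33 members r was -0.484, and the points share a library and gene family. The part of GC content alone was not tested. In a fit corrected for GC content and length together, added after seeing the data, Cd80, Cd86, Cd1d1 and H2-Q6 kept their calls and H2-Q7 (log2 fold change -0.69, adjusted p = 0.0148), Nlrc5 (0.32, adjusted p = 0.0360) and Tapbp (0.34, adjusted p = 0.0423) were called as well, so that 4 members were higher and 3 lower, beside 5.0% and 4.84% of the 13730 genes in that fit. Without replicate 3, 7 members were called higher and 4 lower at any fold, beside 11.1% and 10.4% of all 13905 genes tested in that fit. They included the 4 called with all libraries.

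**Figure D4:**
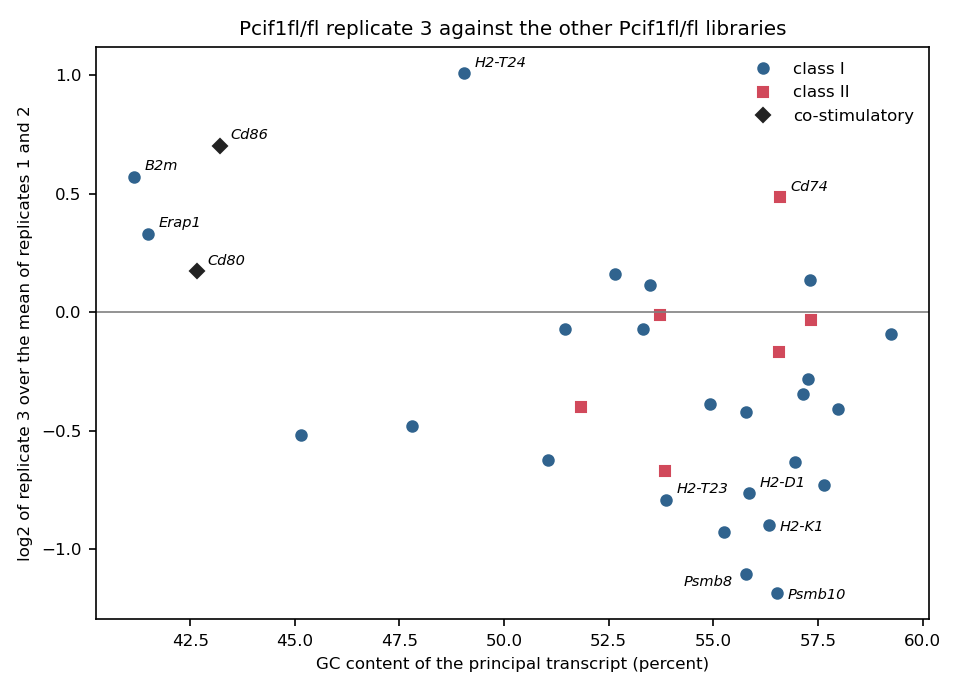
Log2 ratio of WT replicate 3 over the mean of replicates 1 and 2 (y axis) against the GC content of the principal transcript in percent (x axis) for the 33 genes tested. Circles are class I genes, squares class II genes and diamonds co-stimulatory ligands. The 4 genes under 45% GC lie above 0, and H2-D1, H2-K1, Psmb8 and Psmb10, all above 55%, lie well below it.

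The wider pathways were compared through lists written by hand. Of 24 further genes of the class I pathway (the constitutive proteasome, the PA28 activator, chaperones and peptidases), edgeR called 0 and DESeq2 1, higher (3.76% of all genes). In edgeR 4 had an unadjusted p under 0.05, all higher (9.56% of all genes), and 23 had a positive log2 fold change with a median of 0.23. WT replicate 3 was the lowest library for 16 of the 24 (32.1% of all genes), and without it 7 were called higher (11.1% of all genes) and the median was 0.12. The constitutive subunits Psmb5, Psmb6 and Psmb7, with 0.37, 0.34 and 0.29, were also lower in WT replicate 3 than in the other 5 libraries. Of 8 class II pathway genes, edgeR called 1 (2.88% of all genes) and DESeq2 2 (3.76%), all higher, with a median of 0.16. In the fit without WT replicate 3 edgeR called 4 higher (11.1% of all genes). The gene that rose in edgeR was Ctsl, a protease that degrades the invariant chain in thymic epithelium, at 622, 622 and 490 CPM against 948, 882 and 920 CPM (log2 fold change 0.67, SE 0.11, adjusted p = 0.00961). It was not called without CKO replicate 1 (adjusted p = 0.0638) or 3 (0.0567). Ctss, which does so in dendritic cells and B cells and is likewise named for its values, was at 2247, 2346 and 1713 CPM against 3070, 2728 and 2855 CPM and was not called (0.46, adjusted p = 0.0778).

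Regulators of the complex gave no call with all libraries. Of 16 genes of interferon-gamma signalling and of the RFX, NF-Y and CREB factors, edgeR and DESeq2 called 0, and the median was 0.02. At an unadjusted p under 0.05 in edgeR, 1 was higher and 2 lower (9.56% and 11.8% of all genes). Ifngr1, the interferon-gamma receptor's ligand-binding chain, was lower in every CKO library (-0.35, adjusted p = 0.0897) and was the 1 gene called, lower, without WT replicate 3. Rfxank (-0.43, adjusted p = 0.222) was also lower in every CKO library and Irf8 (0.30, adjusted p = 0.199) higher, and these genes were named after their values were seen. Irf1, a transcription factor induced by interferon-gamma, was at 31.3, 27.75 and 25.7 CPM against 30.0, 34.0 and 29.8 CPM, with overlap (log2 fold change 0.15, adjusted p = 0.523). Of 29 interferon-stimulated genes tested, 3 rose and 0 fell (2.88% and 4.51% of all genes), with a median of 0.42, and DESeq2 called 8, all higher (3.76% of all genes). The 3 were the ubiquitin-like modifier Isg15 (0.81, adjusted p = 0.0145), the antiviral synthetase Oas1a (0.80, adjusted p = 0.00482) and the GTPase Tgtp1 (1.75, adjusted p = 0.00556). Isg15 was not called without CKO replicate 1 (adjusted p = 0.0765) or 2 (0.0676). WT replicate 3 was the highest of the 6 libraries for 14 of the 29, and without it 23 were called higher (11.1% of all genes), with a median of 0.85. For the 25 class I genes it was the lowest library in 10 and the highest in 2.

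The cultures held transcripts of macrophages, which carry class I, class II and B7 molecules themselves. All 15 macrophage markers were detected, with Lyz2 between 21980.5 and 26233 CPM, Csf1r between 940.5 and 1244 CPM, Adgre1 between 393 and 625 CPM and Ptprc, the pan-leukocyte CD45, between 171 and 245 CPM. Their summed level was 32368 to 35745 CPM in WT and 33269 to 36440 CPM in CKO MSCs, ranges that overlap. Csf1r was lower in every CKO library (log2 fold change -0.26, adjusted p = 0.141) and Adgre1 higher in every one (0.24, adjusted p = 0.398), neither called. Itgam (0.45, adjusted p = 0.0645) and Cd14 (0.67, adjusted p = 0.0718), named after their values were seen, were also higher in every CKO library. By edgeR 0 of the 15 passed the test and by DESeq2 2 did, both higher (3.76% of all genes), with a median of 0.10. At an unadjusted p under 0.05 in edgeR, 2 were higher and 1 lower (9.56% and 11.8% of all genes). In the fit without WT replicate 3, edgeR called 3 higher and 1 lower (11.1% and 10.4% of all genes). Prrx1, the marker of limb mesenchyme, was between 211 and 283 CPM. Of 10 mesenchymal markers, 5 rose and 2 fell, beside 2.88% and 4.51% of all genes. Thy1 (log2 fold change 1.52, adjusted p = 0.0113), Ly6a (1.12), Cd44 (0.71), Col1a2 (0.64) and Col1a1 (0.61) were higher, and Eng (-1.11, adjusted p = 0.00507) and Pdgfra (-0.42) lower in CKO MSCs. Eng was called whichever library was left out. Thy1 was lost without CKO replicate 1 (adjusted p = 0.0515) or 2 (0.0590), and the other 5 each in at least 3 of the 6 such fits, with a highest adjusted p of 0.0926 (Col1a1), 0.108 (Cd44 and Ly6a), 0.142 (Col1a2) and 0.155 (Pdgfra). In which cells Cd80, Cd86, Cd1d1 and H2-Q6 were made was not tested.

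Dendritic cell markers moved in opposite directions. Itgax (CD11c), also found on macrophages, rose from 6.77, 6.91 and 10.15 CPM to 18.4, 13.1 and 18.3 CPM (log2 fold change 1.06, adjusted p = 0.0185). Zbtb46, a factor of classical dendritic cells, fell from 2.71, 2.61 and 2.80 CPM to 0.585, 1.24 and 1.44 CPM (-1.31, adjusted p = 0.0414). Both were called without WT replicate 3. Without another library Zbtb46 was not called (adjusted p = 0.0666 to 0.119), and Itgax was called only without CKO replicate 2 (0.0605 and 0.0797 without WT replicates 1 and 2, 0.0928 and 0.0885 without CKO replicates 1 and 3). The other 6 markers of the list, Flt3, Xcr1, Clec9a, Ccr7, Siglech and Batf3, were at or near 0 in all libraries, at most 0.747 CPM, and the summed level of the list was 10.1 to 13.2 CPM against 15.6 to 20.2 CPM. Of the B cell markers, Cd79a, Cd79b, Ms4a1 and Pax5 were at most 0.405 CPM, and of the T cell markers Cd3d and Lck were at most 0.450 CPM. Among 6 neutrophil markers S100a8 was tested and rose (1.45, adjusted p = 0.0394) from between 0.294 and 0.611 CPM to between 1.11 and 1.40 CPM, a call kept only without WT replicate 3 (adjusted p from 0.0557 to 0.161 without any of the others). Cd22 (B cell list) and Cd4 (T cell list), both also found on myeloid cells, were tested and not called. Of 6 endothelial markers 0 were called by edgeR and 1 by DESeq2, lower (5.26% of all genes). At an unadjusted p under 0.05 in edgeR, 1 was lower (11.8% of all genes). The part of these cells in the results was not tested.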

How the data were processed

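Poly(A) RNA of 6 libraries (3 Pcif1fl/fl, 3 Prrx1-Cre;Pcif1fl/fl) was analysed from the gene counts the authors deposited. The authors aligned reads to mm10, and the submitters' processing notes name FastQC, HISAT2 and DESeq2. The counting tool, the annotation and the strand setting were not given in the sources used here, so antisense overlaps cannot be told apart and reads of near-identical paralogs may have been split. In the deposited counts, 92 rows repeated an Ensembl ID and were used once. H2-Aa was not analysed here.

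Genes were kept with filterByExpr, scaled by TMM and tested with glmQLFit and glmQLFTest (edgeR 4.0.16, R 4.3.3) on all 6 libraries without covariates. P-values were adjusted by Benjamini and Hochberg over all 13733 genes. SE is the log2 fold change divided by the root of F. Calls required an adjusted p under 0.05, with or without a log2 fold change of 1 or more in size. Groups came from the sample labels. Library totals ran from 20258209 to 28227696. The lower limit was taken as 3 counts, and errors of counting do not cover PCR duplicates. Scripts were tested on simulated data.

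Every member could be named. Values in each library were given for a preset list of members and for every member called, and from the other lists for genes called (at most 5 a list) and defining markers. Members and lists were chosen with earlier results of these data known. Alternatives were RLE scaling, total counts, no filter, a mean of at least 10 counts, a replicate block, limma-voom (limma 3.58.1), DESeq2 1.42.0, each library left out and, chosen after seeing the data, a correction for GC content and length (a natural spline with 5 degrees of freedom). Transcript lengths, GC content and overlaps came from GENCODE M21 on GRCm38, and 100-base windows were matched between genes. Promoters came from RefSeq on GRCm38.p6 and were aligned with Biopython 1.88 (Python 3.11.15). Some genes of the lists are not reported here.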

Additional observations from a re-analysis of the deposited data

How the results depend on the processing

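Among the 33 genes tested, 462 comparisons with an alternative left 412 with the same direction and side of the threshold. Another 11 gained a call, 18 lost it and 21 changed sign, among them B2m without WT replicate 3, which was then called. All 18 losses fell on Cd80, Cd86, Cd1d1 and H2-Q6, since only a called gene can lose a call. Most of the 412 were genes uncalled in both fits, so that count does not measure how steady the calls were. The 4 calls at any fold were kept with RLE scaling, total counts, limma-voom, DESeq2, either filter and the correction for GC content and length. Without 1 library they held at WT replicate 3 only. Left out in turn, the libraries gave 0 to 5 class I genes higher and 0 to 4 lower at any fold (0 and 2 with all), 0 to 1 class I gene higher at 2-fold (0 with all), and 0 to 2 co-stimulatory ligands higher at any fold (0 to 1 at 2-fold, 0 with all). The correction for GC content and length, chosen after seeing the data, gave 2 class I genes higher at any fold and 687 of all genes. It gave 3 class I genes lower, H2-Q7 among them, and 664 (4.84%) of all genes. With all libraries and no correction, 2 class I genes were lower and 2 co-stimulatory ligands higher at any fold. Over all genes, 396 were higher and 620 lower at any fold (142 and 343 at 2-fold), and leaving out a library gave 148 to 1544 and 324 to 1447 at any fold and 89 to 229 higher at 2-fold. The class II genes gave 0 calls in every fit.

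The sign changed when a library was left out for H2-D1 (-0.10 to 0.30), H2-K1 (-0.11 to 0.33), H2-M3 (-0.029 to 0.27), B2m (-0.15 to 0.19), Psmb8 (-0.011 to 0.52), Psmb9 (-0.053 to 0.37), H2-M9 (-1.19 to 0.22), H2-T-ps (-0.17 to 0.27), H2-T10 (-0.12 to 0.12) and H2-DMb2 (-0.42 to 0.61). H2-T10 was at -0.0052 with total counts, H2-T-ps at -0.019 with the correction for GC content and length, and H2-DMb2 at 0.10 with the replicate block, 0.27 with limma-voom and 0.0043 with DESeq2. The causes were not tested.

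Libraries with the same replicate number did not deviate together (correlations 0.0537, -0.0438 and -0.0149), so the numbers were not taken as pairs. With the replicate block 3 members were called, without Cd86 (adjusted p = 0.0558), so that 1 co-stimulatory ligand remained, and over all genes 267 were higher and 503 lower at any fold.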
